A study of Mus musculus with 6 samples.

Results

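Naive T cells live on signals from a few soluble cytokines, and the receptors for these cytokines are the subject here. Of 10 genes chosen by symbol, 9 were among the 11162 genes of the expression table and all 9 were tested. They were Il7r, Il2rb, Il2rg, Il15ra, Il4ra, Il21r, Il6ra, Il6st and Il27ra. The remaining gene, Il2ra, was not analysed here. RNA had been sequenced from CD8 T cells of mouse spleen, in 3 GFP-hi and 3 GFP-lo libraries. Both populations came from mice with Nur77-GFP (Tg(Nr4a1-EGFP)GY139Gsat), a transgene that makes green fluorescent protein under control of Nr4a1 sequences and so marks signalling through the T-cell receptor. Both were sorted by the same surface profile (CD8+, CD44lo, CD62Lhi, Qa2hi) and OT-I, the name of a transgenic T-cell receptor, and then by bright (Nur77-GFPhi) or dim (Nur77-GFPlo) reporter. The labels give neither the age or number of mice nor whether animals were pooled, and nothing in them says that the 3 libraries of a group came from separate mice, so p-values measure the spread between these libraries, which may be technical.

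These receptors are built from private chains, which bind 1 cytokine or a few, and shared chains, which carry the signal for several. The common gamma chain, encoded by Il2rg, pairs with the interleukin 7, 4 and 21 receptor chains and with the beta chain encoded by Il2rb for interleukins 2 and 15. The gp130 chain, encoded by Il6st, pairs with the chains for interleukins 6 and 27. Janus kinases bound to the chains phosphorylate STAT factors. In naive T cells interleukin 7 is known for supporting survival, and its receptor chain is known to be switched down after the cytokine or the T-cell receptor has signalled.

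In GFP-hi cells 3 private chains were lower, Il7r, Il6ra and Il4ra, and no receptor chain was higher past the threshold. Values are RPKM, reads per kilobase of gene scaled to library size, which allows genes to be compared per length. The test was limma on log2(RPKM + 1) with an adjusted p under 0.05 (Benjamini-Hochberg over all 9351 genes tested). The 3 of 9 lower chains made up 33.3%, while 1.49% of all genes tested were lower. Il7r and Il6ra had already been seen to be lower when the chains were chosen, so the 33.3% is partly fixed by that choice. The 0 of 9 higher chains stood beside 2.46% of all genes tested. At an unadjusted p under 0.05 there were 5 of 9 chains and 20.2% of all genes. The median log2 fold change (GFP-hi over GFP-lo) was -0.13 over the 9 chains and 0.02 over all genes tested. Il15ra passed the filter on low values through its GFP-lo level, and without it 4 of 8 chains had an unadjusted p under 0.05 and the median was -0.08. In bulk RNA, fewer cells with a transcript and less transcript per cell cannot be told apart.

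**Figure D1:**
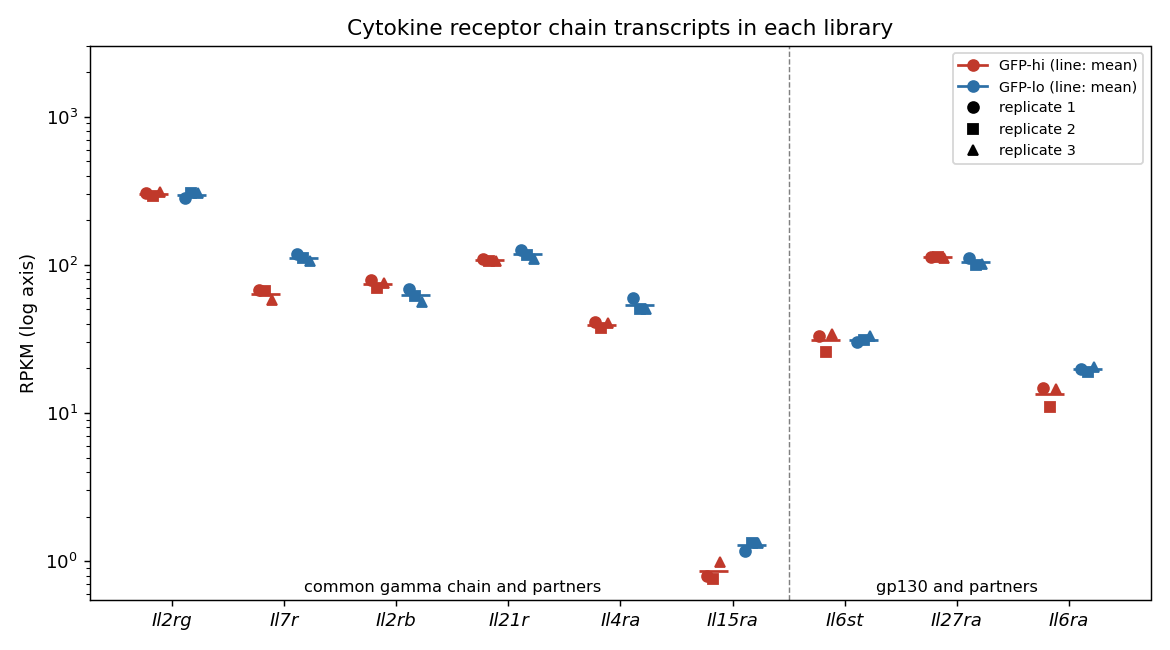
RPKM (log axis) of the 9 receptor chains in each library, GFP-hi in red and GFP-lo in blue, with the mean of each group as a line and symbols for the replicate. The 3 GFP-hi libraries lie below all GFP-lo libraries for Il7r, Il4ra, Il6ra, Il15ra and Il21r, and above them for Il2rb.

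Depth and T-cell markers were read in each library. The depth recovered from the smallest steps in the values was 26170000 to 35940000 reads, so an RPKM of 1 rested on 26.17 to 35.94 reads per kilobase of transcript. The naive CD8 T cell markers had a summed RPKM of 2723 to 2921 in GFP-hi and of 2788 to 2998 in GFP-lo. Of these markers 0 of 10 tested differed, beside 3.95% of all genes tested, and a count of 0 is near that share. The sum hides Ccr7, with 428.8 RPKM in GFP-hi replicate 1 and 516.3 RPKM in GFP-lo replicate 1. In the remaining libraries Ccr7 had 232.5 to 263.8 RPKM. Neither the reporter transcript GFP (log2 fold change 0.15, limma adjusted p = 0.42) nor Nr4a1 (0.02, adjusted p = 0.98) separated the groups, so these transcripts gave no check of the sort. Replicate numbers were given here in the order of the samples in the record, and equal numbers do not pair libraries. Replicate 2 of each group stood apart in heat-shock genes, with 1100 and 1234 RPKM of Hspa1a against at most 235 in the other 4 libraries. Cell cycle genes moved with the groups, and 9 of 12 tested were higher in GFP-hi and 0 lower, with a median log2 fold change of 1.24. Of all genes tested, 2.46% were higher and 1.49% lower. Among those 9, Mki67, Top2a, Ccnb2, Birc5, Bub1b and Pclaf passed the filter only through GFP-hi, with GFP-lo means under 1 RPKM. Stmn1, Rrm2 and Mcm5 had GFP-lo means of 3.64, 1.67 and 15.3 RPKM. The summed RPKM of the 15 cell cycle genes was 121.6 to 135.6 in GFP-hi and 81.8 to 87.0 in GFP-lo. Their part in the receptor results was not tested.

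Il7r (Entrez 16197, chr15:9506159-9529941, GRCm38.p6) encodes the private chain of the interleukin 7 receptor, CD127. Its RPKM was 68.1, 66.2 and 57.7 in the GFP-hi libraries and 118.8, 111.5 and 105.4 in the GFP-lo libraries. All GFP-hi values lay far below the lowest GFP-lo value, and the mean of 64.0 ± 5.53 RPKM was 57.2% of the mean of 111.9 ± 6.71 RPKM (SD, n = 3 each). This was -0.80 on the log2 scale, where the standard error was 0.077, the 95% interval -0.98 to -0.62 and the limma adjusted p 0.0022. Of the 139 genes lower in GFP-hi, 16 had a fold change at least as negative, Il7r among them. The call held in each of the 20 alternative fits, with adjusted p values from 0.00027 to 0.031.

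Il6ra (Entrez 16194, chr3:89869324-89913196) encodes the chain that binds interleukin 6. It had 14.7, 11.0 and 14.6 RPKM in GFP-hi and 19.8, 19.0 and 20.4 RPKM in GFP-lo libraries. The groups did not overlap, and GFP-hi replicate 2 was the lowest of all. The GFP-hi mean of 13.5 ± 2.11 and the GFP-lo mean of 19.7 ± 0.715 RPKM (SD, n = 3 each) gave a log2 difference of -0.53 (95% interval -0.77 to -0.29, standard error 0.10, limma adjusted p = 0.032). Il6ra missed the threshold when GFP-hi replicate 1 was left out (adjusted p = 0.053), and likewise GFP-lo replicate 1 (0.10), replicate 2 (0.091) and replicate 3 (0.11).

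Il4ra (Entrez 16190, chr7:125552271-125579474) encodes the chain that binds interleukin 4, a cytokine that also acts on naive CD8 T cells. Its RPKM was 40.9, 37.3 and 40.3 in GFP-hi and 59.8, 50.1 and 50.2 in GFP-lo libraries. Again every GFP-hi library was below every GFP-lo library, with means of 39.5 ± 1.92 and 53.3 ± 5.57 RPKM (SD, n = 3 each). On the log2 scale this was -0.42 (95% interval -0.60 to -0.24, standard error 0.080, limma adjusted p = 0.028). Leaving out GFP-lo replicate 1, the highest library, gave -0.34 and kept the call (adjusted p = 0.045). Leaving out any other single library gave log2 values from -0.46 to -0.38 and lost the call, with adjusted p values from 0.062 (GFP-hi replicate 2) through 0.065 (GFP-lo replicate 3), 0.067 (GFP-lo replicate 2) and 0.073 (GFP-hi replicate 1) to 0.079 (GFP-hi replicate 3).

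The DNA just upstream of these 3 genes is shown because their transcripts were lower together. The stretches come from RefSeq (GRCm38.p6), run 5′ to 3′ on the gene's strand and stop before the first base covered by the RefSeq gene or by an exon of its coding transcripts in GENCODE M21. Capitals mark matches to 5 motifs searched on both strands, namely GGAAG (ETS factors), TGTTTAC (forkhead factors such as FOXO1), AAAGGTCA (NR4A factors such as Nur77), TTCNNNGAA (STAT factors) and TGTGGT (RUNX factors).
Il7r: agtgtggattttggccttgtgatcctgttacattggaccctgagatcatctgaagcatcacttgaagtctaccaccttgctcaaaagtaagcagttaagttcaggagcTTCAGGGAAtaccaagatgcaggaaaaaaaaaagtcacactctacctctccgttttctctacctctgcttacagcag
Il6ra: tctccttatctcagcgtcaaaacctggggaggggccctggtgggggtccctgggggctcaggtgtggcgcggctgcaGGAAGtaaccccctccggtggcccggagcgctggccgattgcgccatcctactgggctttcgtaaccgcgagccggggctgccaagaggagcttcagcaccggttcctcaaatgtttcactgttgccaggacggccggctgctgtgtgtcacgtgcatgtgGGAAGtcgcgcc
Il4ra: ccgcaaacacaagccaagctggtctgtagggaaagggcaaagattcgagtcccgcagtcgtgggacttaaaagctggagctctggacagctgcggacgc

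The Il7r stretch (chr15:9529942-9530126, minus strand, 185 bases) held 1 match, TTCAGGGAA, to the STAT letters. A match to these letters was present in 5.38% of all promoter windows taken at the same length. The Il6ra stretch (chr3:89913197-89913446, minus strand, 250 bases) held 2 ETS matches, as at least 1 such match did in 64.1% of windows of that length. The Il4ra stretch (chr7:125552021-125552119, plus strand, 99 bases) held 0 matches, where 31.4% of windows of that length held the ETS letters. The NR4A letters were in none of the 3 stretches. They were in 1.0%, 1.34% and 0.511% of all windows of the lengths of the Il7r, Il6ra and Il4ra stretches, so absence is the usual case. GC content differed widely, at 43.8% for Il7r, 65.2% for Il6ra and 57.6% for Il4ra. These are matches of letters and were not tested for binding.

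Il15ra (Entrez 16169, chr2:11705172-11733985), whose product holds and presents interleukin 15, had the lowest level of the 9 chains. It had 0.797, 0.764 and 0.995 RPKM in GFP-hi and 1.17, 1.33 and 1.34 RPKM in GFP-lo libraries. The groups did not overlap. The groups differed by -0.30 on the log2 scale (limma adjusted p = 0.093, standard error 0.083), and by -0.54 with a pseudocount of 0.1 (adjusted p = 0.10). The filter required a mean of 1 RPKM over all libraries, and the GFP-hi mean was 0.852 RPKM. These values rested on 22.7 to 29.3 reads per kilobase of transcript in GFP-hi and on 35.0 to 42.0 in GFP-lo.

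Il21r (Entrez 60504, chr7:125603252-125634397) encodes the interleukin 21 receptor chain and is the next protein-coding gene after Il4ra on chromosome 7. It had 109.2, 105.8 and 106.2 RPKM in GFP-hi and 125.8, 116.3 and 110.1 RPKM in GFP-lo libraries. The gap between the groups was under 1 RPKM. That was -0.13 on the log2 scale, the 95% interval running from -0.27 to 0.01 (limma adjusted p = 0.29).

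Il27ra (Entrez 50931, chr8:84030286-84042600) encodes the private chain for interleukin 27. It had 113.3, 112.7 and 110.5 RPKM in GFP-hi and 111.7, 100.2 and 102.1 RPKM in GFP-lo libraries, and the groups overlapped. The log2 value was 0.10 (95% interval -0.03 to 0.23, limma adjusted p = 0.39).

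The shared chains came next. Il2rg (Entrez 16186, chrX:101264385-101268255), the common gamma chain, was the most abundant of the 9 chains. It had 305.2, 290.9 and 308.8 RPKM in GFP-hi and 284.0, 305.3 and 304.4 RPKM in GFP-lo libraries. The groups overlapped, at 0.02 on the log2 scale (95% interval -0.11 to 0.15, limma adjusted p = 0.90). Its sign was negative in 3 of 20 alternative fits.

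Il6st (Entrez 16195, chr13:112464070-112506860), the gp130 chain, had 32.9, 25.7 and 34.2 RPKM in GFP-hi and 30.02, 31.0 and 32.9 RPKM in GFP-lo libraries. GFP-hi replicate 2 was the low value, as it was for Il6ra. The log2 value was -0.03 (95% interval -0.26 to 0.21, limma adjusted p = 0.92), and it was 0.10 when that library was left out.

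Il2rb (Entrez 16185, chr15:78479256-78511621), the beta chain that interleukins 2 and 15 share, differed the other way from Il7r. It had 79.4, 69.5 and 75.1 RPKM in GFP-hi and 68.6, 61.5 and 56.4 RPKM in GFP-lo libraries. The lowest GFP-hi library was just above the highest GFP-lo library. The group means of 74.7 ± 4.98 and 62.2 ± 6.10 RPKM (SD, n = 3 each) gave a log2 difference of 0.26 (95% interval 0.07 to 0.45, standard error 0.083, limma adjusted p = 0.13). It passed the threshold in 2 of 20 alternative fits, at 0.32 when libraries were weighted by quality (adjusted p = 0.0097) and at 0.38 in 4 libraries with more reads of nasal receptor genes (adjusted p = 0.027).

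**Figure D2:**
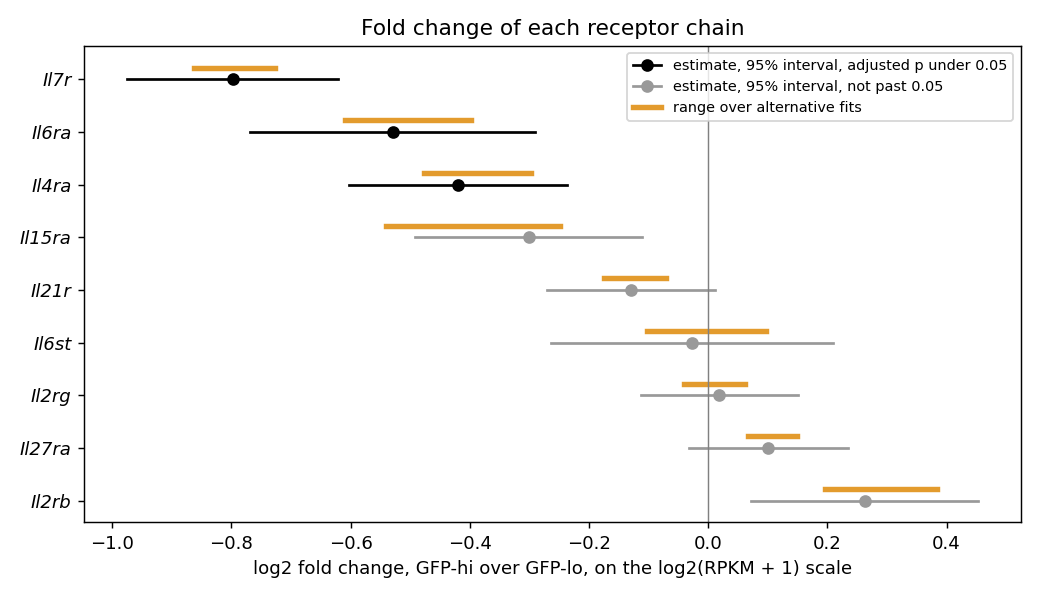
Log2 fold change of each receptor chain on the log2(RPKM + 1) scale, as the limma estimate with its 95% interval (black where the adjusted p was under 0.05, grey otherwise) and, in orange, the range over the alternative fits. Il7r, Il6ra and Il4ra lie furthest to the left, at -0.80, -0.53 and -0.42, and Il2rb furthest to the right, at 0.26.

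Counting libraries rather than means, and leaving out Il15ra, 4 of 8 chains had all GFP-hi libraries below all GFP-lo libraries, as had 9.84% of all genes tested. Il2rb had them all above, as had 17.1% of all genes. The order of the levels was the same in the 3 libraries of a group and differed between the groups. In each GFP-lo library the order from the top was Il2rg, Il21r, Il7r, Il27ra, Il2rb, Il4ra, Il6st, Il6ra and Il15ra. In each GFP-hi library it was Il2rg, Il27ra, Il21r, Il2rb, Il7r, Il4ra, Il6st, Il6ra and Il15ra. Il7r thus stood above Il2rb in all GFP-lo libraries and below it in all GFP-hi libraries. Several neighbours had overlapping ranges over the 3 libraries of a group, although their order held within each library. Examples were Il21r, Il7r and Il27ra in GFP-lo, with 117.4 ± 7.93, 111.9 ± 6.71 and 104.7 ± 6.19 RPKM (SD, n = 3 each). These differences between chains were not tested, and the order of different genes depends on the gene lengths behind the RPKM.

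To set each partner chain beside its shared chain, the ratio of their RPKM was taken in each library. Il7r came to 22.3%, 22.8% and 18.7% of Il2rg in GFP-hi and to 41.8%, 36.5% and 34.6% in GFP-lo libraries. The difference of the log2 ratios was -0.82, and the groups did not overlap. Il4ra came to 12.8% to 13.4% of Il2rg in GFP-hi and to 16.4% to 21.1% in GFP-lo, a log2 difference of -0.44. Il15ra came to 0.261% to 0.322% against 0.412% to 0.439%, a log2 difference of -0.32. Il6ra came to 44.7%, 42.9% and 42.8% of Il6st in GFP-hi and to 66.0%, 61.1% and 61.95% in GFP-lo libraries. Here GFP-hi replicate 2 no longer stood apart, since both chains were low in it, and the log2 difference was -0.50.

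Leaving out Il15ra, 3 of 6 ratios separated the groups, and the ratios of Il2rb, Il21r and Il27ra overlapped. In an exact two-sided permutation test Il7r, Il4ra and Il6ra each had p = 0.10, the smallest that 3 against 3 libraries allow, and an adjusted p of 0.175 over the 7 pairs computed. A p under 0.05 could not be reached by this test. Il2rb over Il2rg had a log2 difference of 0.24 (exact permutation p = 0.20), Il21r over Il2rg of -0.15 (p = 0.20) and Il27ra over Il6st of 0.13 (p = 0.50).

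**Figure D3:**
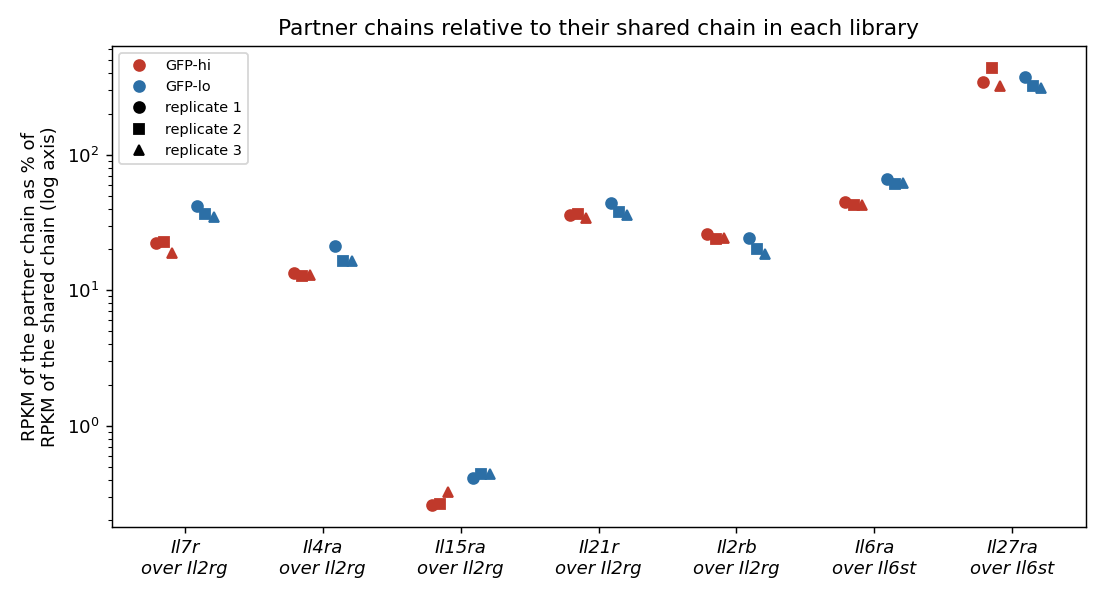
RPKM of each partner chain as a percentage of the RPKM of its shared chain (log axis) in each library, GFP-hi in red and GFP-lo in blue. The groups are apart for Il7r, Il4ra and Il15ra over Il2rg and for Il6ra over Il6st, where GFP-hi libraries lie at 42.8% to 44.7% and GFP-lo libraries at 61.1% to 66.0%.

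The comparison was repeated in a pair of smaller sets of libraries. Among the 4 libraries with lower heat-shock genes, 2 per group, the log2 fold changes were -0.83 for Il7r (limma adjusted p = 0.031), -0.43 for Il6ra (adjusted p = 0.039) and -0.42 for Il4ra (adjusted p = 0.11). The other set held the 4 libraries with a higher median RPKM over 41 genes of odorant and vomeronasal receptors, also 2 per group, and there the values were -0.78 for Il7r (adjusted p = 0.011), -0.40 for Il6ra (adjusted p = 0.020) and -0.30 for Il4ra (adjusted p = 0.022). Both sets held GFP-hi replicates 1 and 3 and GFP-lo replicate 3, so they are not separate checks. The remaining GFP-lo library was replicate 1 in the heat-shock set and replicate 2 in the nasal receptor set. Il7r and Il6ra were past the threshold in both sets, and Il4ra in the nasal receptor set only. The 2 libraries outside each set were 1 per group and gave no test.

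Markers of other cells were read beside these values. Of 7 CD4 and regulatory T cell markers, 4 were listed, with a summed RPKM of 31.4 to 43.5 in GFP-hi and 51.4 to 64.2 in GFP-lo, and Cd4, Foxp3 and Zbtb7b were not analysed here. In GFP-lo most of that sum was Cd40lg, while in GFP-hi Cd40lg had 14.2 to 22.7 RPKM beside 14.2 to 17.4 RPKM of Tnfrsf18. Cd40lg was lower in GFP-hi by a log2 difference of -1.13 (limma adjusted p = 0.011). The other 3 did not share that direction. Ctla4 had 2.54 ± 0.790 and 1.42 ± 0.393 RPKM in GFP-hi and GFP-lo, Tnfrsf18 15.5 ± 1.69 and 15.2 ± 0.607, and Ikzf4, which was under the filter, 0.514 ± 0.0565 and 0.233 ± 0.0470 (SD, n = 3 each). Of 9 markers of memory-like CD8 T cells, 7 were listed, with a summed RPKM of 346.1 to 367.5 in GFP-hi and 349.4 to 383.1 in GFP-lo. Within that list the chemokine receptor gene Cxcr3 was lower in GFP-hi (-1.26, limma adjusted p = 0.0054). It was the 1 lower gene of 7 tested, beside 1.49% of all genes tested. Of the 7 fold changes 6 were negative, as were 4164 of all 9351 genes tested. Cd44 was at -0.06, Tbx21 at -0.11 and Eomes at -0.01, each with overlapping groups. Ly6c2 was at -0.82 (adjusted p = 0.095), with all GFP-hi libraries below all GFP-lo libraries, and Ccl5 at -0.40. Most of the sum was Nkg7, with 298.2 to 315.9 RPKM in GFP-hi and 275.6 to 283.7 RPKM in GFP-lo. Eomes, a transcription factor that supports Il2rb in memory cells, had 6.54 ± 1.41 and 6.57 ± 0.977 RPKM (SD, n = 3 each). Single listed genes of the NK, myeloid and erythroid lists stayed under 2 RPKM in each library, and the B cell list was led by Cd79b, with 13.2 ± 1.04 and 10.8 ± 0.329 RPKM (SD, n = 3 each). The part of these markers in the receptor values was not tested.

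Downstream of the receptors, 0 of 10 Janus kinase and STAT genes tested passed the threshold in either direction, beside 3.95% of all genes tested. A count of 0 among 10 genes is near that share. Log2 fold changes of these kinase and STAT genes ran from -0.07 to 0.17, with a median of -0.0173 and a smallest limma adjusted p of 0.22. Jak1 had 211.4 ± 8.01 and 210.4 ± 6.35 RPKM in GFP-hi and GFP-lo (SD, n = 3 each). Jak3, the kinase of the common gamma chain, had 50.2 ± 3.95 and 47.3 ± 2.79 RPKM (SD, n = 3 each). Stat5a, a factor activated by interleukins 2, 7 and 15, had 13.3, 13.4 and 13.9 RPKM in GFP-hi and 13.1, 11.2 and 11.6 RPKM in GFP-lo libraries. That was a log2 fold change of 0.17 (95% interval 0.01 to 0.32, limma adjusted p = 0.22).

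Among 13 feedback inhibitors tested, 0 were higher and 1 was lower, beside 2.46% higher and 1.49% lower of all genes tested. The list median was 0.04. The lower gene was Socs3, which restrains signalling through gp130. It had 27.3, 45.6 and 36.6 RPKM in GFP-hi and 63.4, 76.9 and 68.2 RPKM in GFP-lo libraries. The groups did not overlap, and the log2 difference was -0.93 (limma adjusted p = 0.021, standard error 0.16). Socs3 missed the threshold when GFP-hi replicate 3 (adjusted p = 0.053) or GFP-lo replicate 1 (0.061), 2 (0.083) or 3 (0.072) was left out. It belongs as well to a list of dissociation and heat-shock genes. Of that list 17 genes, Socs3 among them, were tested with a median of -0.30. A negative fold change was seen for 14 of them and for 4164 of all 9351 genes tested. With the list mean as a covariate Socs3 was at -0.80 (limma adjusted p = 0.0095), but that mean includes Socs3 itself. In the 4 libraries with lower heat-shock genes Socs3 was at -1.03 (adjusted p = 0.039). The part of the other genes of the list in the Socs3 value was not tested.

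Of 18 cytokine-induced genes tested, 1 was higher and 0 were lower, beside 2.46% higher and 1.49% lower of all genes tested. The list median was 0.05. The higher gene was Bcl6, a transcriptional repressor, at 2.34, 2.29 and 2.79 RPKM in GFP-hi and 1.75, 1.39 and 1.38 RPKM in GFP-lo libraries. Bcl6 differed by 0.47 on the log2 scale (limma adjusted p = 0.031, standard error 0.091). It missed the threshold when GFP-hi replicate 1 (adjusted p = 0.086) or 3 (0.11), or GFP-lo replicate 2 (0.12) or 3 (0.11), was left out. Pim1, a survival kinase gene induced by STAT5, had 6.11, 8.20 and 7.02 RPKM in GFP-hi and 13.4, 9.08 and 11.5 RPKM in GFP-lo libraries. That was -0.59 on the log2 scale (limma adjusted p = 0.057), and leaving out a library gave -0.73 (adjusted p = 0.040, without GFP-lo replicate 2) to -0.48 (adjusted p = 0.14, without GFP-lo replicate 1). Of those 6 fits 1 passed the threshold. The survival genes Bcl2 (-0.11, limma adjusted p = 0.40) and Mcl1 (-0.07, adjusted p = 0.78) did not pass.

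Transcription factors known to act on Il7r gave 0 higher and 0 lower genes of 12 tested, with a median of 0.02. Foxo1, which is known to maintain Il7r in naive T cells, had 55.02, 56.5 and 53.1 RPKM in GFP-hi and 51.0, 49.4 and 48.8 RPKM in GFP-lo libraries. All GFP-hi libraries lay slightly above all GFP-lo libraries, as in 17.1% of all genes tested. The log2 fold change was 0.14 (95% interval 0.02 to 0.26, limma adjusted p = 0.18). The part of Foxo1 and the other factors in the Il7r level was not tested. Gfi1, a repressor of Il7r, had 7.06 ± 1.49 and 5.39 ± 0.934 RPKM (SD, n = 3 each), a log2 difference of 0.33 (limma adjusted p = 0.26). Genes of receptor endocytosis and trafficking gave 0 calls of 10 (median -0.01), further chains of the same receptor families 0 of 4 (median 0.06) and ligands 0 of 2 (Osm and Clcf1). Counts of 0 in lists of these sizes, the factors acting on Il7r included, are near the share of 3.95% over all genes tested.

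**Figure D4:**
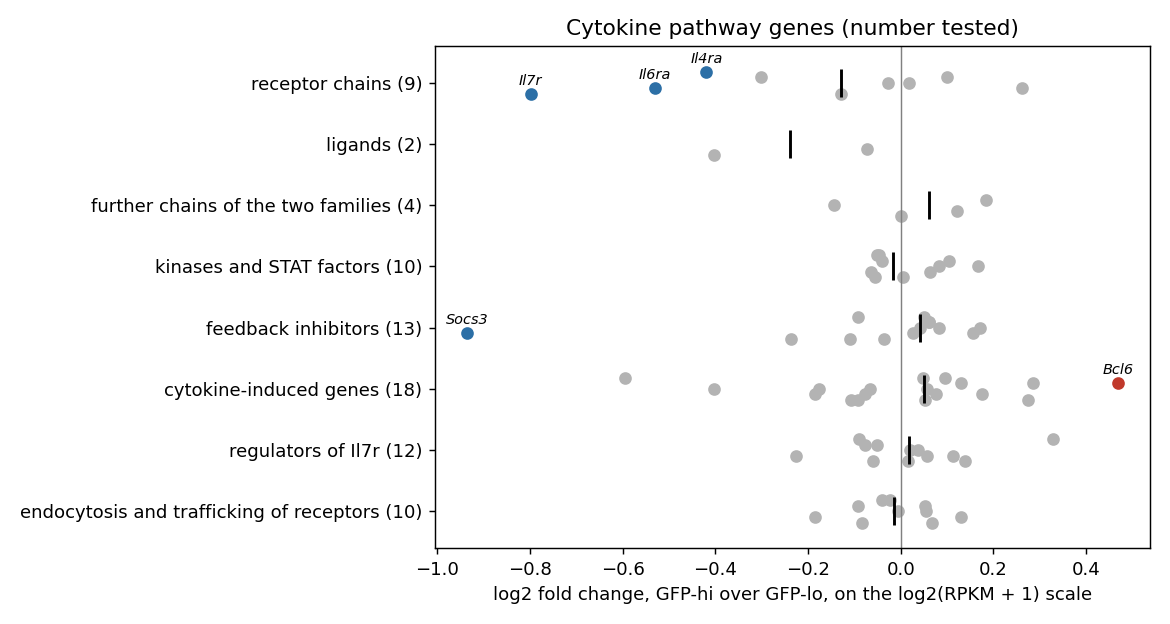
Log2 fold change of each tested gene of the receptor chains and of 7 cytokine pathway lists, with the list median as a black bar and genes past an adjusted p of 0.05 in red (higher) or blue (lower). Outside the receptor chains the named genes are Socs3 at -0.93 and Bcl6 at 0.47, and the kinases and STAT factors lie between -0.07 and 0.17.

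The genes whose levels followed a receptor chain most closely were sought by Pearson's r of log2(RPKM + 1) over the 6 libraries, which share the group difference and so are not independent points. For Il7r these were Abhd15 (r = 0.994), Rcsd1 (0.990), Pltp (0.989), Dnaja4 (0.988) and Ado (0.988). Of these, Abhd15, Pltp and Dnaja4 were lower past the threshold, and the RPKM of Pltp was 2.39 ± 0.340 for GFP-hi against 4.95 ± 0.395 for GFP-lo (SD, n = 3 each, limma adjusted p = 0.0037). For Il4ra they were Fam102a, Tle4, Tmem268, Gtf3c2 and Ptpra (r from 0.991 to 0.996), and for Il6ra Eme2, Akap8, Atp10d, Jade1 and Gprin3 (r from 0.986 to 0.998), of which Atp10d was lower past the threshold (adjusted p = 0.048). No gene was among the 5 of more than 1 receptor chain.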

How the data were processed

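Per the labels' protocols, sorted cells were lysed and frozen, RNA was column-purified, cDNA was made with SMART-seq v4 and libraries with Nextera XT. The deposited values are RPKM made by the authors, 1 column per library. The submitters' processing notes name STAR and mm10. The read counter, its use of strand, the annotation and the rule for listing genes are not given in the sources used here. Exons of Il2rg, Il4ra and Il6ra share 30.5%, 9.5% and 2.8% of their bases with predicted genes in GENCODE M21, so a part of their reads is uncertain.

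For 14 symbols turned into dates and 1 missing symbol, RefSeq's symbol for the Entrez ID was used. Genes with a mean of at least 1 RPKM were tested on log2(RPKM + 1), which understates changes of low genes, with limma 3.58.1 in R 4.3.3 (eBayes with trend, no covariate, two-sided). The test was tried on simulated data over 9351 genes of the GFP-hi against GFP-lo comparison. On average 72.1% of 200 genes changed by 0.5 and 96.3% of those changed by 1 on the log2 scale were recovered. Noise was drawn separately for each gene and library, so differences shared by many genes of a library, as in heat-shock genes, were absent. The shares recovered hold for that setting only. Depth was recovered from 720 genes with a single GENCODE transcript, where 89.3% to 93.8% of low values, and 20% by chance, fell no further than 0.1 from a whole number of reads. Counting error is a lower limit, since reads include PCR copies.

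The receptor genes and lists were chosen with earlier results of these data known, and Il7r and Il6ra had already been seen to be lower. The rule names all listed receptor chains, kinases and STAT factors, pathway genes with an adjusted p under 0.05, and the 5 genes most like each receptor chain past the threshold, passing over predicted genes. 1 pathway gene is not reported here. Other genes named were chosen after their values were seen. Alternatives changed the pseudocount, filter, scaling, variance model and libraries, and 4 more (2 divisions of the libraries, heat-shock genes as a covariate, removal of the trend with transcript length) were chosen after seeing the data. Figures were drawn with matplotlib 3.10.9.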

Additional observations from a re-analysis of the deposited data

How the results depend on the processing

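Il7r was called in all 20 alternatives run, Il6ra in 16 and Il4ra in 14, each with a negative sign throughout. Leaving out each library in turn gave 1 to 2 lower and 0 higher receptor chains. The count of 3 lower chains was 4 with array quality weights. Il2rb was the 1 chain higher with array quality weights, and again the 1 higher chain among the 4 libraries with more nasal receptor genes. The 369 differing genes (230 higher, 139 lower) became 202 (119 and 83) at a mean RPKM of at least 5, 1282 (783 and 499) with array quality weights, 101 (52 and 49) when only the 4 libraries with lower heat-shock genes were used and 843 (576 and 267) with heat-shock genes as a covariate. Removing the trend with transcript length gave 214 higher and 209 lower, or 50.6% higher against 62.3%, and scaling by a trimmed mean of M values gave 201 and 186, or 51.9%. Leaving out each library gave 133 to 315 differing genes, 71 to 187 higher and 59 to 128 lower. Of pathway genes, 1 was higher and 1 lower, and leaving out each library gave 0 to 1 in either direction. Higher ones numbered 0 at the stricter filter and with lower heat-shock genes, 4 with array quality weights and 3 with the covariate. Lower ones numbered 3 with array quality weights and 2 with trimmed mean scaling, with the transcript length trend removed and in either set of 4 libraries.

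Among the receptor chains, kinases and STAT factors described, signs turned for genes with log2 values near 0. Il2rg was at -0.0098 with trimmed mean scaling, -0.0408 with the length trend removed and -0.0157 to 0.0440 with a library left out. Il6st was at 0.0781 with array quality weights, 0.0912 with lower heat-shock genes, 0.0681 with more nasal receptor genes and -0.1023 to 0.0971 with a library left out. Jak1 was at -0.022 with trimmed mean scaling, -0.007 with array quality weights, -0.0015 with the covariate, -0.0019 with the length trend removed and -0.023 to 0.0306 with a library left out. With array quality weights Tyk2 was at 0.0494, Stat2 at 0.07 and Stat6 at 0.0098. With more nasal receptor genes Tyk2 was at 0.0825, Stat2 at 0.0131 and Stat6 at 0.0618. With a library left out, Tyk2 ran from -0.1061 to 0.0259, Stat2 from -0.1369 to 0.0121 and Stat6 from -0.0949 to 0.021. The ratio of Il27ra to Il6st was at -0.0243 with lower heat-shock genes. The causes were not tested. No paired analysis was possible because the labels number no replicates and tie no library of a group to one of the other. Il15ra had no value at the stricter filter, and its reads, under 43 per kilobase, were the fewest of the receptor chains.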

Other observations

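The common gamma chain is shared by its partners, so the partners' levels were also summed in each library, a choice made after the values were seen. The summed RPKM of the 5 partner chains Il7r, Il2rb, Il15ra, Il4ra and Il21r was 298.4, 279.6 and 280.3 in GFP-hi and 374.1, 340.6 and 323.4 in GFP-lo libraries. This was 97.8%, 96.1% and 90.8% of Il2rg in GFP-hi and 132%, 112% and 106% in GFP-lo. The summed partners thus lay below Il2rg in each GFP-hi library and above it in each GFP-lo library. Where the sum crosses Il2rg depends on the annotation and gene lengths behind the RPKM, which are not given in the sources used here. Exons of Il2rg also share 30.5% of their bases with a predicted gene. Il7r made up 22.8%, 23.7% and 20.6% of the partner sum in GFP-hi and 31.7%, 32.7% and 32.6% in GFP-lo libraries. Il2rb made up 26.6%, 24.8% and 26.8% in GFP-hi and 18.3%, 18.0% and 17.5% in GFP-lo libraries. These are descriptions with no test, built from chains whose levels were known. A share moves with the other chains of the sum, and Il2rb itself did not pass the threshold.

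The ligand gene Il15 was listed below the level tested, at 0.359, 0.109 and 0.324 RPKM in GFP-hi and 0.072, 0.397 and 0.854 RPKM in GFP-lo libraries, with overlapping groups. Ligand genes Il7, Il2, Il4 and Il6 were not analysed here.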
